A study of Mus musculus with 2 samples.

Results

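Resident tissue macrophage markers are genes that mark the macrophages living in a tissue in the absence of injury. The set held 10 genes, Mrc1, Cd163, Lyve1, Timd4, Folr2, Cd5l, Vsig4, F13a1, Cbr2 and Adgre1. Every probe set annotated with a single gene symbol from this set was taken, which gave 11 probe sets for 10 genes, out of 34945 probe sets for 18193 genes on the array. Lyve1 had 2 probe sets and each of the other genes had 1. The genes were read in epididymal white adipose tissue (a visceral fat depot of the abdomen) of male C57BL/6 mice. The chow group was 1 sample from a mouse kept on normal chow, and the high-fat diet group was 1 sample from a mouse given a high-fat diet for 7 weeks. The dietary challenge began at 9 weeks of age, and the composition of the diets and the age of the chow mouse at collection are not given in the labels.

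Fat tissue holds resident macrophages that lie along blood vessels and between fat cells, where they take up dead cells, proteins and lipids. In obesity, monocytes enter the fat pad and become macrophages that gather around dying fat cells. Genes of the resident set are used to tell the cells that were there before from those that arrive. In whole tissue, fewer cells of a type and less RNA per cell cannot be told apart.

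With 1 array per diet there is no replicate, and no test of the diet was possible. The words "higher" and "lower" below compare 1 sample with 1 other. The deposited value is a linear intensity per probe set. A floor for weak signal was set at the 40th percentile of each array, 28.6 and 27.9 for chow and high-fat diet. Values under the floor were raised to it, and a difference with 1 array under the floor is a bound. Differences are log2 intensity on the high-fat diet minus chow. As a yardstick of probe error, the differences of probe sets of the same gene had a pooled SD of 0.37 log2 units where the gene's mean intensity was under 100. The SD was 0.29 from 100 to 400 and 0.20 from 400 up. This SD holds no difference between animals. The labelled tissue carried its markers, with Adipoq, the gene of adiponectin, at 8372.1 and 8718.4 (chow first, here and in every such pair).

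All 10 members were measured. Cd5l exceeded the floor with chow alone, and the other 9 did so with both diets. On the high-fat diet 7 members were lower and 3 were higher. Over all 14066 measured genes, 52.5% were lower and 46.8% higher. The median difference was -0.27 for the members and -0.02 for all measured genes. At 1.2-fold or more, 5 members were lower and 2 higher, beside 23.0% and 19.8% of all genes. Lyve1, at 1.24-fold, was the nearest of these to the step. At 1.5-fold or more 2 members were lower, beside 6.33% of all genes, and 0 were higher, beside 5.75%. At 2-fold or more 1 member was lower, beside 1.33% of all genes, and 0 were higher, beside 1.16%. Cd5l and Timd4, the members with the greatest differences, and Vsig4 had mean intensities under 100. Among the 6592 genes with a mean intensity under 100, 9.39% were lower by 1.5-fold or more and 2.05% by 2-fold or more.

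The lists of related genes set beside the members are described by counts and medians, to be read against the shares of all genes above. The medians of the lists for apoptotic cell uptake, haemoglobin and iron, hyaluronan, folate, IgM, mannose receptor relatives, alternative activation, Kupffer cells, pan-macrophage genes, blood endothelium, adipocytes and epididymis took both signs over the processing settings, and no direction is read from them.

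**Figure D1:**
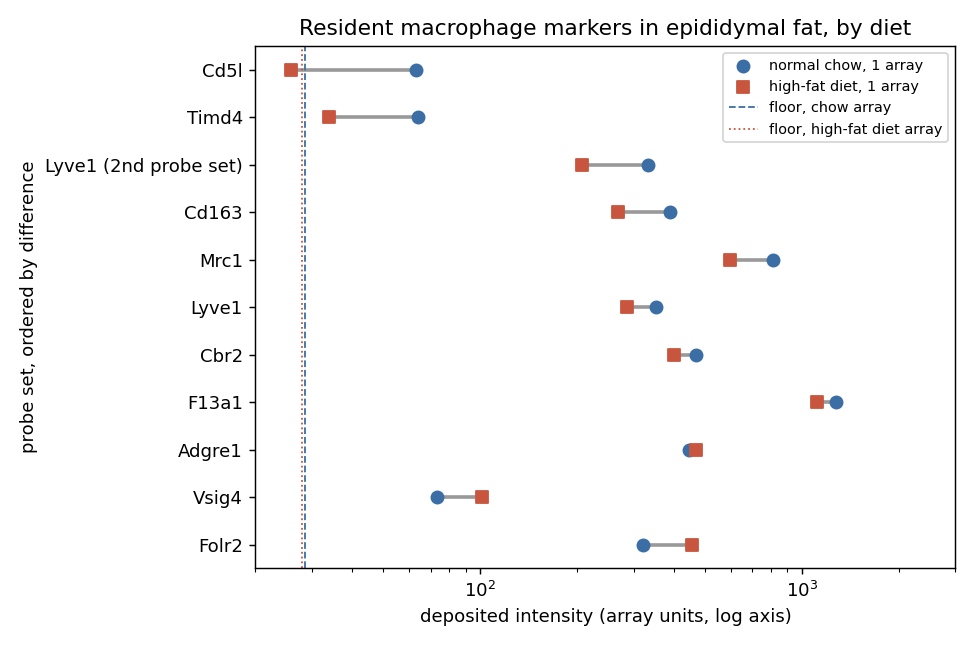
Deposited intensity (log axis) of each of the 11 probe sets on the chow array (circles) and the high-fat diet array (squares), with 1 array per diet and the floor of each array as a vertical line. Cd5l was under the floor with high-fat feeding (25.7) and Timd4 lay just above it (33.8), while Vsig4 and Folr2 were higher on the high-fat diet.

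Of the uptake receptors in the set Mrc1, Cd163, Lyve1 and Timd4 were lower on the high-fat diet, and Folr2 and Vsig4 were higher. Mrc1 encodes the mannose receptor CD206, a lectin that takes up glycoproteins with mannose-rich sugars. Its probe set 1450430_at read 810.1 on the chow array and 598.9 on the other, 1.35-fold lower, a difference of -0.44. This was 2.13 times the probe SD of its level. Cd163 encodes a scavenger receptor that clears haemoglobin bound to haptoglobin. Its probe set 1419144_at read 389.1 with chow and 268.0 with high-fat feeding, 1.45-fold lower, a difference of -0.54 and 1.86 times the probe SD. Of all measured genes, 11.8% were lower by at least as much as Mrc1 and 7.71% by at least as much as Cd163.

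Other genes of these receptor families did not share a direction. In the list of mannose receptor relatives and C-type lectins 6 of 10 measured genes were lower, 4 were higher and 0 passed 2-fold, and the median was -0.29, or 0.07 with plain probe sets only. Mrc2, a collagen-binding relative of Mrc1, was 1.80-fold higher, from 59.2 to 106.3. Pla2r1, the phospholipase A2 receptor of the same family, was 1.72-fold lower, from 94.5 to 55.1. Cd209b, a lectin of macrophages, was 1.37-fold lower, but its other probe set differed by 0.13. Among scavenger receptors 10 of 14 were lower, with a median of -0.13, and 0 were past 2-fold. Scara5, a ferritin receptor, was 1.73-fold lower in its brighter probe set, from 1289.9 to 746.4. Its other probe set was weak, under the floor with chow at 23.4 and at 47.5 with high-fat feeding, and gave a bound of 0.73 in the other direction. Ssc5d was 1.70-fold lower, from 98.7 to 58.1, and Cd6, a surface receptor of T cells of the same protein family as Cd163, exceeded the floor with high-fat feeding alone and was at least 1.84-fold higher. Around the cargo of Cd163, the haemoglobin, haem and iron list had a median of -0.04, with 7 of 13 lower. Hp, the gene of haptoglobin, was at 7967.1 and 7724.7, and Hmox1, the haem-degrading oxygenase, at 115.2 and 116.2. Slc48a1, a haem transporter, was 1.94-fold higher, although its other probe set differed by only 0.07. Hpx, the gene of haemopexin, was lower, from 59.2 to 42.4.

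Lyve1 encodes a hyaluronan receptor that marks perivascular macrophages and also lymphatic endothelium. Its brighter probe set 1429379_at read 352.1 with chow and 284.8 with high-fat feeding, 1.24-fold lower, a difference of -0.31. The other, 1453128_at, had 331.4 and 206.6, 1.60-fold lower, a difference of -0.68. Both probe sets differed the same way, and their differences lay 0.38 log2 units apart. They were annotated with the same transcript accession. Markers of lymphatic endothelium were lower with Lyve1. Of 8 such genes on the array, 5 were measured and all 5 were lower, with a median of -0.43. Their summed intensity was 1143.4 with chow and 913.5 with high-fat feeding. Flt4, the receptor of lymphatic growth factors, was 1.34-fold lower, from 209.9 to 156.3, Reln 1.48-fold, Fgl2 1.35-fold and Mmrn1 1.22-fold lower, though the other probe set of Fgl2 differed by only -0.03. Prox1, the defining transcription factor of lymphatic endothelium, was under the floor on both arrays at 19.5 and 22.3. The part of lymphatic cells in the Lyve1 difference was not tested. In the hyaluronan turnover list the median was -0.02, and 5 of 9 genes were lower. Stab2, another hyaluronan receptor, was 1.41-fold higher, from 42.0 to 59.3, and Cd44, the main hyaluronan receptor of leukocytes, was at 236.8 and 233.1. Cemip, which drives hyaluronan breakdown, exceeded the floor with high-fat feeding alone and was at least 1.44-fold higher.

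Timd4 encodes a receptor for phosphatidylserine, the lipid that dying cells expose. Its probe set 1455318_at read 63.9 with chow and 33.8 with high-fat feeding, 1.89-fold lower, a difference of -0.92 and 2.45 times the probe SD of weak genes. The high-fat diet value was 1.21 times the floor, and with a floor at the 60th percentile only a bound of -0.12 remained. Of all measured genes, 1.83% were lower by at least as much. Other genes of apoptotic cell uptake were split, with 6 of 13 lower, 7 higher, a median of 0.05 and 0 past 2-fold. Mertk, a receptor kinase that takes up apoptotic cells, was 1.49-fold lower, from 280.9 to 188.5. Gas6, the ligand that bridges Mertk to phosphatidylserine, was 1.78-fold lower in its brighter probe set, from 1381.1 to 775.1. Its other probe set was much weaker, at 51.8 and 62.6, and differed by 0.27. Stab1, a scavenger receptor that also binds phosphatidylserine, was 1.45-fold lower. Mfge8, a bridging protein to integrins, was instead 1.63-fold higher, from 1072.7 to 1747.9. Axl, the sister receptor of Mertk, was at 473.3 and 488.8.

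Cd5l encodes a secreted protein of tissue macrophages, also called AIM, that circulates bound to IgM. Its probe set 1449193_at read 63.2 with chow and 25.7 with high-fat feeding, where it lay under the floor. It was at least 2.27-fold lower, the only member past 2-fold, and it was not past 2-fold with the floor at the 60th percentile (-0.10) or with log2(intensity + 16) (-0.93). As reported, 0.697% of all measured genes were lower by at least as much. Among genes of IgM, its J chain and receptors, Jchain was 1.78-fold lower, from 259.7 to 145.6, and Fcmr, an IgM receptor, 1.45-fold lower, from 78.1 to 54.0. Ighm, the IgM heavy chain, was at 2765.2 and 4110.8 in its brightest probe set, and its other 5 probe sets differed by 1.11, 0.39, -0.05, -0.28 and -1.22. Of these, 0.39 and -1.22 were bounds. The list had 2 genes lower, 2 higher and a median of 0.

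Cd5l is also a gene of Kupffer cells, the macrophages of the liver, and liver genes were lower too. All 9 measured genes of a hepatocyte list were lower, 4 by 2-fold or more, with a median of -0.63. Their summed intensity was 9605.7 with chow and 7876.7 with high-fat feeding, most of it from Cyp2e1, which fat cells also express, at 8752.7 and 7561.1. Apoa2 was at least 7.68-fold lower, from 214.2 to 13.1, and Ttr 3.80-fold lower, from 108.7 to 28.6. The other probe sets of Ttr, under the floor with high-fat feeding, gave bounds of -1.29 and -0.98. The other genes past 2-fold were Apoa1 and Apoh. Apoa1 was a bound, and its further probe sets, also under the floor with high-fat feeding, gave bounds of -0.44 and -0.39. The second probe set of Apoh differed by 0.15. Alb, the gene of albumin, was at 141.5 and 121.5, while the fibrinogen genes Fgb and Fgg were under the floor on both arrays. Of the Kupffer cell list, Clec4f, its defining lectin, was at 41.2 with chow and, under the floor, at 20 with high-fat feeding. Marco was at 30.1 and 15.3, and Spic was under the floor on both arrays at 12.6 and 5.0. That list had 3 of 5 measured genes lower and a median of -0.06, and its summed intensity was 1187.1 with chow and 1361.7 with high-fat feeding. Most of it came from Id3, a transcriptional regulator that is not particular to Kupffer cells, at 748.8 and 935.5, and without it the sum was 438.3 and 426.2. Vsig4, which Kupffer cells also express, differed in the other direction from Cd5l. The part of liver cells in the Cd5l difference was not tested.

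Vsig4 and Folr2 were higher on the high-fat diet, unlike the other uptake receptors of the set. Vsig4 encodes a complement receptor that binds fragments of component C3 and captures particles coated with them. Its probe set 1451651_at read 73.4 with chow and 101.2 with high-fat feeding, 1.38-fold higher, a difference of 0.46 and 1.24 times the probe SD. Folr2 encodes the folate receptor of macrophages, also called folate receptor beta. Its probe set 1451648_a_at read 320.7 with chow and 454.4 with high-fat feeding, 1.42-fold higher, a difference of 0.50 and 1.74 times the probe SD. Of all measured genes, 9.24% were higher by at least as much as Vsig4 and 7.82% by at least as much as Folr2.

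In the complement list 5 of 9 measured genes were higher and 4 lower, with a median of 0.23. Cd55, an inhibitor that protects host cells from complement, was 2.05-fold higher, from 74.7 to 152.9, and each of its other 2 probe sets differed by 0.86. Itgax, the gene of CD11c and a chain of another complement receptor, was 1.66-fold higher, and Cfb, a factor of the alternative pathway, 1.59-fold higher, from 435.3 to 692.3. Cr1l, which encodes another membrane inhibitor, was 1.45-fold lower. Among folate uptake genes 3 of 6 were lower, and the median was -0.02. Folr1, the folate receptor of epithelia, was 1.58-fold lower, from 85.7 to 54.1, and Fpgs, which traps folate inside cells, 1.32-fold lower.

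Of the enzymes in the set, both were lower by small amounts. F13a1 encodes the A chain of coagulation factor XIII, a transglutaminase that cross-links fibrin and matrix proteins. Its probe set 1448929_at read 1278.4 with chow and 1110.8 with high-fat feeding, 1.15-fold lower, a difference of -0.20. This lay within 1 probe SD, and 28.5% of all genes were lower by at least as much. Cbr2 encodes a carbonyl reductase. Its probe set 1418509_at read 467.4 with chow and 399.2 with high-fat feeding, 1.17-fold lower, a difference of -0.23 and 1.11 times the probe SD, and 26.2% of all genes were lower by at least as much. Among transglutaminases and fibrin genes 5 of 7 were lower, with a median of -0.22. Tgm2, the tissue transglutaminase, was 1.27-fold lower, from 1168.8 to 918.8, and its other 4 probe sets were lower too. Tgm3 was 1.87-fold higher but weak, from 31.7 to 59.3. Among short-chain carbonyl reductases 6 of 9 were lower, with a median of -0.06, and Cbr3 was 1.54-fold lower, from 155.3 to 101.1.

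Adgre1 encodes the adhesion receptor that is the classical surface antigen of mouse macrophages. Its probe set 1451161_a_at read 444.7 with chow and 468.3 with high-fat feeding, a difference of 0.07, within 1 probe SD, and -0.0044 when the arrays were centred on reference genes. Its relatives Adgre5 and Adgre4 were at 431.8 and 453.9 and at 82.2 and 70.9. The adhesion receptor list had 5 of 8 genes lower and a median of -0.06.

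**Figure D2:**
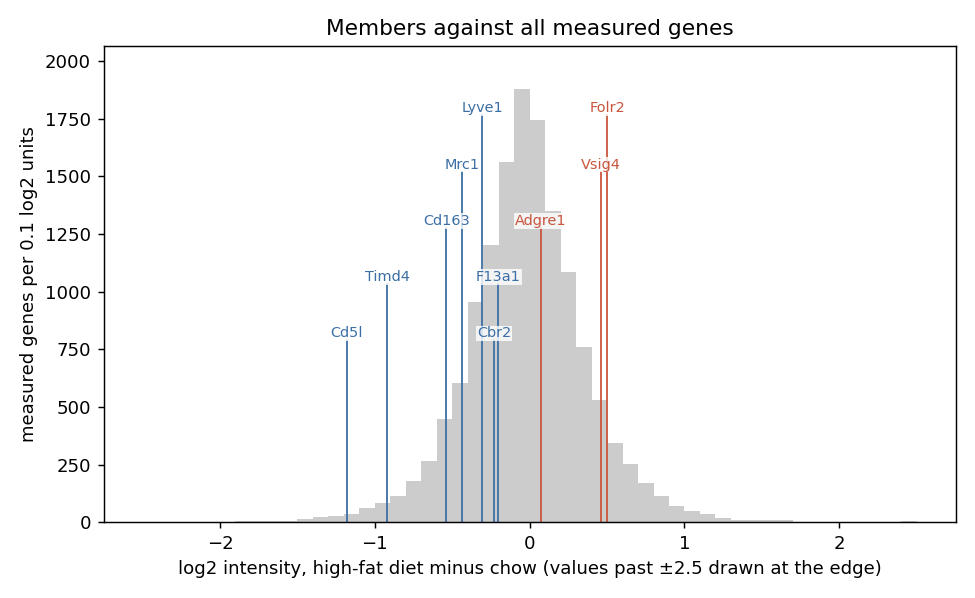
Histogram of log2 intensity, high-fat diet minus chow, over all 14066 measured genes (bars of 0.1 log2 units), with a vertical line at each of the 10 members. Cd5l, a bound, and Timd4 lie in the lower tail, and Folr2 and Vsig4 lie on the upper side at 0.50 and 0.46, with Adgre1 near 0 (0.07, and -0.0044 under reference gene centring).

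General macrophage genes gave a reference for these differences. In the list of 20 pan-macrophage genes 9 were lower and 11 higher, from -0.64 to 0.28, with a median of 0.04. The reference gene centring turned that median to -0.04. Csf1r, the receptor for the macrophage growth factor, was at 1609.7 and 1686.7, and Cd68, a lysosomal glycoprotein of macrophages, was 1.16-fold higher, from 222.2 to 258.1. Cd14, a co-receptor for bacterial lipopolysaccharide, was 1.56-fold lower and had the largest difference of the list. Timd4 and Cd5l lay below all 20 of these genes, and Folr2 and Vsig4 above all 20. Cd163 and Mrc1 each lay above only 2 of them, Cd14 and Mertk. Timd4, Cd5l and Vsig4 had mean intensities under 100, where the probe SD was largest. With the floor at the 60th percentile only bounds of -0.12 and -0.10 remained for Timd4 and Cd5l. Relative to the median of the list, Cd163 differed by -0.58, Mrc1 by -0.48, Lyve1 by -0.35, Cbr2 by -0.27 and F13a1 by -0.24, and Adgre1 by 0.03. Differences taken this way do not depend on the scaling by a constant between the arrays.

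Other genes of resident and perivascular macrophages outside the set were spread in both directions, with 17 of 28 measured ones lower, 11 higher, a median of -0.16 and 0 past 2-fold. Beside Gas6 and Stab1, Igf1, a growth factor also made by other cells of fat, was 1.77-fold lower, from 1669.4 to 943.2, and its other 3 probe sets differed by -0.77, -0.53 and -0.43. Pla2g2d, a secreted phospholipase, was 1.53-fold lower, with -0.63 in a further probe set. Ltc4s, the leukotriene synthase of myeloid cells, was 1.70-fold higher, from 640.3 to 1089.6. The 3 chains of C1q, which resident macrophages make in quantity, differed by 0.19 log2 units at most in their brightest probe sets, with C1qa at 1320.8 and 1456.5, C1qb at 963.4 and 913.7 and C1qc at 1100.7 and 967.0.

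Genes of lipid-associated and recruited macrophages were set beside the members. Of 10 lipid-associated genes 7 were higher, 2 by 2-fold or more, with a median of 0.65. Fabp5, a fatty acid binding protein also made by fat cells, was 2.09-fold higher, and Mmp12, the macrophage elastase, 1.78-fold higher. Atp6v0d2, the other gene past 2-fold, was weak, from 29.3 to 60.3, and its other probe set differed by 0.36. Trem2, the lipid receptor that defines these cells, was 1.64-fold lower and weak, from 55.4 to 33.7. Dcstamp and Cd9 were lower as well, from 63.9 to 44.8 and from 252.3 to 239.6. Of 10 monocyte and recruited macrophage genes 7 were lower, and the median was -0.17. Ccr2, the chemokine receptor of inflammatory monocytes, was 1.43-fold higher, from 184.0 to 263.5. Its other 3 probe sets differed by 0.03, 0.25 and 0.41, the last a bound. Cx3cr1, the receptor of patrolling monocytes and some resident macrophages, was above the floor only on chow, at 61.9 and 24.3, and at least 2.22-fold lower. Growth and lineage factors of macrophages differed little in their brightest probe sets, from -0.26 to 0.32 over 16 genes with a median of -0.05. A further probe set differed by -0.50 for Csf2rb and by 0.46 for Zeb2. Csf1, the macrophage growth factor, was at 301.5 and 265.7, and its other 3 probe sets differed by -0.08, 0.19 and -0.42. Maf, a transcription factor of resident macrophages, was at 492.9 and 450.9. The other 5 probe sets of Maf lay between -0.81 and -0.05, among them a bound of -0.16.

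**Figure D3:**
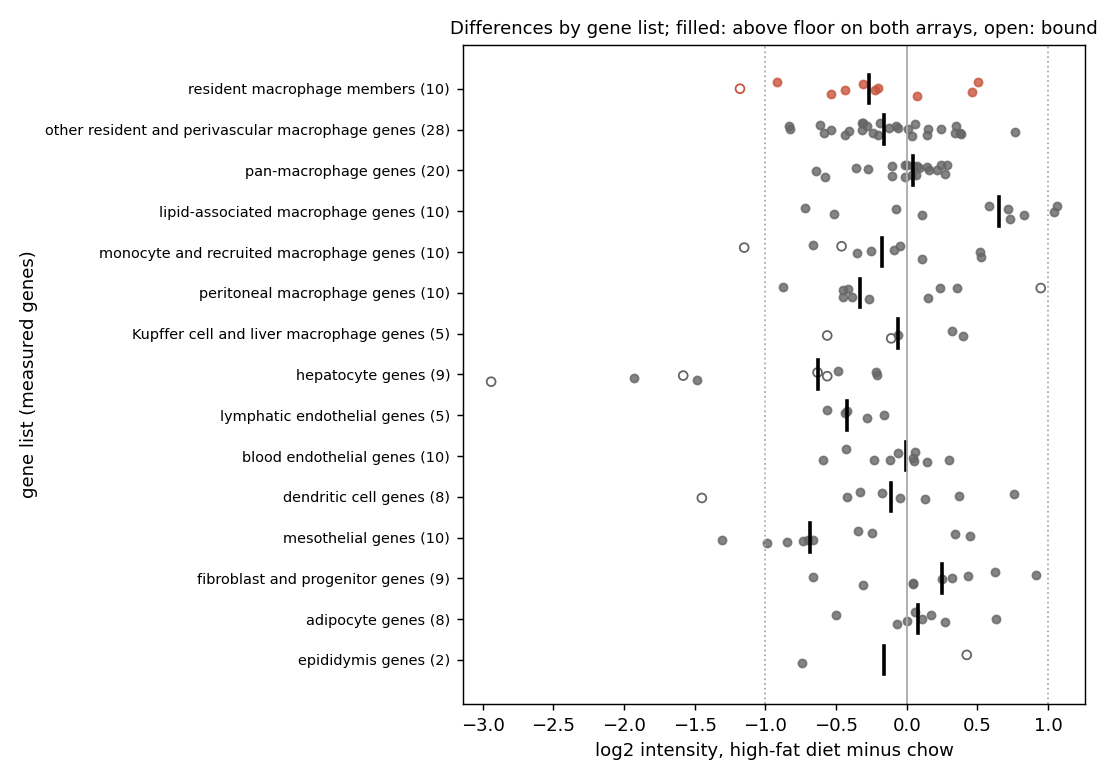
Log2 intensity, high-fat diet minus chow, of each measured gene in the resident macrophage set (top), the other macrophage lists and the lists of other cell types, with the list's median as a black bar. Filled points were above the floor on both arrays and open points are bounds. The members spread from -1.18 to 0.50 around a median of -0.27, next to a median of 0.65 for lipid-associated genes and -0.68 for mesothelial genes.

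Markers of other cells that share the fat pad or its surface also differed. Mesothelial genes, from the lining of the pad, stood lower for 8 of 10, had a median of -0.68, and their summed intensity was 1895.1 with chow and 1360.2 with high-fat feeding. Bnc1 was 2.48-fold lower and weak, from 69.1 to 27.9, Krt19 was 1.99-fold and Wt1 1.80-fold lower. The 2 higher genes were Msln, from 73.9 to 101.0, and Krt8, from 159.0 to 201.3. The other probe sets of Krt8 differed by 0.15 and -0.24. Timd4 is also expressed by macrophages of the peritoneal cavity, and of 10 genes of those cells 6 were lower, with a median of -0.33 and summed intensities of 3208.9 and 3715.8. Fn1, the gene of fibronectin, which many cells of fat make, was at 2187.7 and 2794.7, and without it the sum was 1021.2 with chow and 921.1 with high-fat feeding. Gata6, their defining transcription factor, was at 223.7 and 185.7 in its brightest probe set, a difference of -0.27. Its other 2 probe sets differed by 0.09 and by 0.62, the latter a bound. Rarb had the largest difference of that list. It was under the floor with chow, at 26.4, and at 55.2 with high-fat feeding, at least 1.93-fold higher. Alox15 was 1.84-fold lower, from 100 to 54.4. The part of these cells in the Timd4 difference was not tested. Blood endothelial genes had a median of -0.01, with 5 of 10 lower, and adipocyte genes a median of 0.08, with 2 of 8 lower. Of 5 epididymis genes on the array 3 were under the floor on both arrays, among them Lcn5 at 4.7 and 3.5.

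Promoter sequences are shown for the 2 members with the most negative and the 2 with the most positive difference. They are the 250 bases before the annotated start, 5′ to 3′ on the gene's strand, from RefSeq (GRCm38.p6). The set of promoter sequences used here held 8 of the 10 members, without Lyve1 and Adgre1. Folr2 had 2 annotated starts, and the outer is shown. Capitals mark matches to the sequences searched.
Cd5l, chr3:87357631-87357880, plus strand: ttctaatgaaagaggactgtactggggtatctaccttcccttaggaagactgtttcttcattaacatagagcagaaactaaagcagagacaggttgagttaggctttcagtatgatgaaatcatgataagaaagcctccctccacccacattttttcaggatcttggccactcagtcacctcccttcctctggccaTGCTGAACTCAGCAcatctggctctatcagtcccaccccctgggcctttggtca
Timd4, chr11:46810549-46810798, plus strand: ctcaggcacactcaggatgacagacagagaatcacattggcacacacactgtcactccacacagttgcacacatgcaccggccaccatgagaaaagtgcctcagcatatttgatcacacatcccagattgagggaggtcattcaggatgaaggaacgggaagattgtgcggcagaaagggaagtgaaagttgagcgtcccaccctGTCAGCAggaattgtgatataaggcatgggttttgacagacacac
Folr2, chr7:101857191-101857440, minus strand: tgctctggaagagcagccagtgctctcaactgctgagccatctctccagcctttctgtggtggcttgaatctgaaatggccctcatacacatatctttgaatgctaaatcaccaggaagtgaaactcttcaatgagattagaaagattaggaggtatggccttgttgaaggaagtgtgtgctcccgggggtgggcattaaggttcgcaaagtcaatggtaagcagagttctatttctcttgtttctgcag
Vsig4, chrX:96293439-96293688, minus strand: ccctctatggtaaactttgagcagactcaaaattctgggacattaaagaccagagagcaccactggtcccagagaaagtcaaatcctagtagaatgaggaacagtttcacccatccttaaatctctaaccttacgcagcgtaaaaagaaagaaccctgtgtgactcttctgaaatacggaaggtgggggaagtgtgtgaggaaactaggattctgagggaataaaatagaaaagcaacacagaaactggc
The sequences searched, on both strands, were the palindromic element of the MAF factors (TGCTGA, any 2 bases, TCAGCA), its shorter form TGCTGAC, GAGGAAGT for PU.1, TGACTCA for AP-1 and TATAAA. The first 2 can overlap, and did not here. They were chosen after the promoters had been read. The Cd5l promoter held TGCTGAACTCAGCA from 54 to 41 bases before the start, a match to the palindromic element. That element was found in 2 of 32536 distinct upstream windows of the same length, or 0.00615%, and the other belonged to Gm33479, a gene model without a name. The search left the 2 middle bases free, and the Cd5l promoter had been read when this pattern was set. The share is therefore no measure of how unusual the Cd5l match is. The Cd5l window did not hold the shorter form TGCTGAC. Timd4 held the shorter form on the opposite strand, read as GTCAGCA here, from 45 to 39 bases before the start, and 3.79% of windows held it. The inner start of Folr2 had TGACTCA from 74 to 68 bases before it, which 4.45% of windows held. No match was found in the windows shown for Folr2 and Vsig4, nor in those of Mrc1, Cd163, F13a1 and Cbr2. GAGGAAGT was in 2.45% of all windows and TATAAA in 12.3%. A match is a description of letters and not a site of binding.

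**Figure D4:**
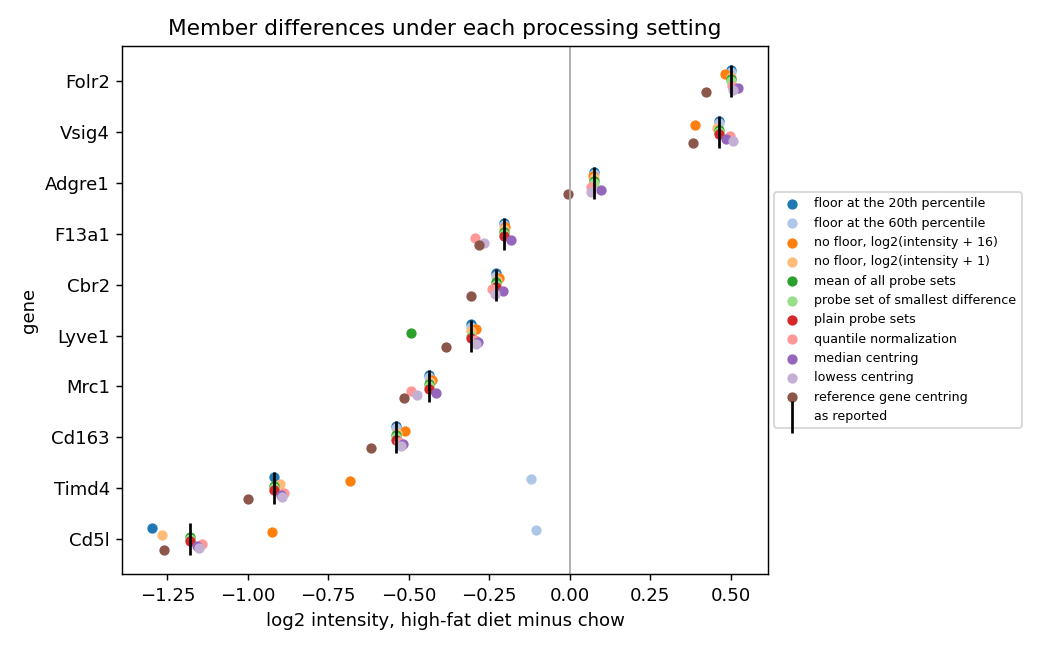
Log2 intensity, high-fat diet minus chow, of each member as reported (black bar) and under each of 11 alternative processing settings (coloured points). For 9 members all settings gave the same sign, Adgre1 crossed 0 under reference gene centring (-0.0044), and Timd4 and Cd5l moved to -0.12 and -0.10 with the floor at the 60th percentile.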

How the data were processed

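Per the labels' protocols, Trizol was used to extract total RNA, and 10 µg served to make biotin-labelled cRNA for an Affymetrix array. The authors deposited linear intensities for 45037 probe sets on each array. How they summarised and scaled them is not stated in the labels. The trimmed means, with 2% removed at each end, were 99.6 and 99.6, and no further scaling was applied. Names came from a platform annotation dated 2016, in which 34945 probe sets had 1 symbol. The probe set with the highest mean log2 intensity stood for its gene. A bound whose sign went against its array was set to 0. Genes named in the text are the members, direct partners, and genes of the lists, a few of them chosen after their values were seen. Up to 4 genes per list by size of difference were planned, but some of these are not named. The members and all 29 lists were chosen with earlier results of these data known. The 1.2-fold and 1.5-fold steps were chosen after the members' values had been seen. With 1 array per diet no test was made, and precision is limited by that number. The calculation was tested on simulated data. Python 3.11.15, pandas 2.3.3 and statsmodels 0.14.6 were used. The 11 alternatives changed the floor, the pseudocount, the probe set rule or the normalization.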

Additional observations from a re-analysis of the deposited data

How the results depend on the processing

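Over 11 alternatives, 137 of 141 values for the members moved by less than the probe SD or, for counts, by no more than 1.5 times, and Adgre1 was the only member whose difference changed sign. Many of these values could not move. The probe set rules cannot change a member with 1 probe set, and the floors cannot change a member well above them. With the floor at the 60th percentile, 60.2 and 58.8 for chow and high-fat diet, just under the chow values of Timd4 and Cd5l, their differences were bounds of -0.12 and -0.10 and 0 members were 2-fold or more lower. That count was also 0 with log2(intensity + 16) and no floor. The median of the members ran from -0.37 with plain probe sets, which leave out Adgre1 and Folr2, to -0.16 with the floor at the 60th percentile. Lyve1 differed by -0.49 when its probe sets were averaged. Centring on the 11 measured reference genes made 8 members lower, with Adgre1 at -0.0044, and the split of all genes at 2-fold was 255 lower and 117 higher, against 187 and 163 as reported. Of genes lower by 2-fold or more there were 713 with the floor at the 20th percentile, 65 at the 60th and 1080 with log2(intensity + 1) and no floor, and of higher genes 598, 88 and 949. Of 307 list medians 9 moved by more than the probe SD. Among them the Kupffer cell list was at 0.32 with the floor at the 60th percentile and with plain probe sets and at -0.50 with log2(intensity + 1), the hepatocyte list at -1.07 with the floor at the 20th percentile, and the mesothelial list at -0.30 with the floor at the 60th. No paired analysis was possible because each diet has 1 array and the labels carry no replicate numbers. Signal over the floor limits the weakest members, with Cd5l at 2.21 times the floor on chow and Timd4 at 2.23 times.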

Other observations

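Genes of alternative activation, a state that resident macrophages of lean fat share in part, were split evenly, with 7 of 14 measured genes lower, 7 higher and a median of -0.0008. Retnla, a secreted product of this state, read 5443.4 with chow and 6181.8 with high-fat feeding, 1.14-fold higher. The chemokine genes Ccl24 and Ccl17 were both lower, from 97.8 to 65.1 and from 61.6 to 42.9. Pparg, which acts in fat cells as well as in macrophages, was lower, from 1115.6 to 795.6. Il10ra, a chain of the interleukin-10 receptor, was listed at 4.6 with chow and 48.0 with high-fat feeding, at least 1.68-fold higher.

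Dendritic cell genes had a median of -0.11, with 5 of 8 measured genes lower. Batf3, a transcription factor of cross-presenting dendritic cells, was above the floor only on chow and at least 2.73-fold lower, from 76.2 to 14.6. Xcr1, a receptor of the same cells, was at 44.0 and 48.2. Itgae was 1.69-fold higher but weak, from 29.1 to 49.3. Irf4 was 1.29-fold higher, from 43.8 to 56.6, with -0.02 in its other probe set. Fibroblast and progenitor genes had a median of 0.25, with 7 of 9 higher. Mfap5 was 1.89-fold higher, from 468.2 to 883.5, and Dpt 1.54-fold higher, from 1933.9 to 2979.3. The 2 lower genes were Pdgfra and Dcn. Pdgfra was 1.58-fold lower, from 289.3 to 182.7, but differed by 0.19 in its other probe set. Dcn was 1.24-fold lower, from 6312.0 to 5096.7.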
